A study of Xenopus laevis with 18 samples.

Results

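Most RNAs of the Xenopus laevis oocyte held a larger share in the cytosol after maturation, but a minority went the other way, and these are described here. They are the 549 transcripts whose mean cytosol share was at least 5 percentage points lower in eggs than in oocytes, among 18766 transcripts with a mean of at least 2 TPM over the 18 libraries (TPM is an abundance corrected for transcript length that adds up to the same sum in every library). That is 2.93% of the transcripts at this level; the cytosol share was higher in eggs for 17671 of the 18766. Transcripts of 9 further gene names, 14 in number, also met the rule and are not described here. The members were chosen by the authors' deposited percent shares, so the lower cytosol share of the members is the criterion itself and carries no test. The lower cytosol share was found in eggs on average, not in every library: the 3 egg values all lay below the 3 oocyte values for 370 members, against 2.06% of all 18766 transcripts, and this count too is set by the rule.

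The eggs were stage VI oocytes freed of follicle cells and matured in culture medium with 2 µM progesterone at 18 °C, and the oocytes were stage VI oocytes freed of follicle cells and kept in the same medium without progesterone. Eggs and oocytes were each separated into a cytosol, an endoplasmic reticulum (ER) and a pellet fraction, with 3 biological replicates per fraction and stage and RNA of 4 cells per library. Spike-in RNAs were added to each fraction before extraction, and the authors turned TPM into attomolar (aM) concentrations with them. A share is the percent of the 3-fraction aM sum of a transcript, within a stage and replicate number, so the 3 shares of a transcript add up to 100%. The animals behind the replicates are not named in the labels, and in pools of 4 cells a lower level in every cell cannot be told apart from a loss in some of the cells.

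A full-grown Xenopus oocyte is arrested in meiosis and holds a store of maternal RNAs, which can change in place, stability and translation. Progesterone restarts meiosis: the nuclear envelope breaks down, the spindle forms, and stored RNAs such as those of the B-type cyclins are brought into translation by lengthening of their poly(A) tails. RNAs that encode secreted and membrane proteins are usually brought to the ER during translation by the signal peptide of the new protein, while RNAs for nuclear and cytosolic proteins have no such route.

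The libraries held 23151477 to 37863113 estimated counts. The first pellet library stood apart in level in both stages. The median pellet share of the members was 36.5, 20.5 and 19.5% in the 3 egg replicates, against 13.7, 6.6 and 8.6% in the 3 oocyte replicates. Over all transcripts it was 19.5, 8.4 and 8.4% in eggs, against 17.8, 8.5 and 11.1% in oocytes. Spike-ins made up 0.196% of the counts of the first egg pellet library and 0.292 to 0.354% of the other egg pellet libraries. In oocytes they made up 0.238% of the first pellet library and 0.313 to 0.322% of the others. Without egg replicate 1 the rule took 408 transcripts, 396 of them members. Leaving it out removes the high first pellet library from eggs only, so the stages are then unlike in this respect. The oocyte label was checked on 12 markers, of which 11 names were found, and their summed level was 1430 to 2846 TPM per egg library and 1930 to 3376 TPM per oocyte library. Of the 22 follicle marker transcripts found, 9 reached 2 TPM. The follicle markers summed to 375 to 984 TPM in egg libraries and 517 to 864 TPM in oocyte libraries, most of it from the keratins krt8 and krt18. Also above 2 TPM were cyp17a1.L (57.2 TPM), vim.L (31.9 TPM), hsd3b1.L (13.9 TPM), vim.S (3.08 TPM) and star.L (2.44 TPM), while fshr, lhcgr, amh, foxl2 and the collagens were below. The sum was 949 to 984 TPM in egg pellets, against 811 to 837 TPM in oocyte pellets. In cytosol it was 788 to 838 TPM in eggs, against 839 to 864 TPM in oocytes. On the ER it was 375 to 493 TPM in eggs, against 517 to 560 TPM in oocytes. Of 21 blood, immune and liver marker transcripts, 1 reached 2 TPM and 3 were at 0 in all libraries; they summed to 2.95 to 6.05 TPM in egg libraries and 3.13 to 6.32 TPM in oocyte libraries. The part of other cells in the results was not tested.

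Across the members, the lower cytosol share of eggs went with a higher pellet share and, for a large subset, also with a higher ER share. The median member had 47.4% of its RNA in the cytosol of eggs and 60.3% in that of oocytes. Its ER share was 25.3% in eggs and 29.3% in oocytes, and its pellet share was 25.8% in eggs and 9.53% in oocytes. All transcripts together showed the opposite in the cytosol, with a median of 68.2% in eggs and 52.7% in oocytes. Their median ER share was lower in eggs, as it was for the members, at 18.7% in eggs and 33.3% in oocytes. Their median pellet share was nearly the same in both stages, 12.1% in eggs and 12.5% in oocytes. A lower cytosol share means, by the rule, a larger share in ER and pellet combined, and only the division between them is left free. Over all transcripts the median ER share difference was -14.2 points. A member whose ER share was also lower in eggs had to have a higher pellet share. The count of higher pellet shares is therefore largely set by the rule. The count of higher ER shares is also raised by it, since a lower cytosol share leaves a larger sum of ER and pellet. The pellet share was higher in eggs for 543 of the 549 members, against 47% of all transcripts, with a median difference of 14.2 points. Without egg replicate 1 this median difference was 8.47 points and 521 members had the higher pellet share in eggs. The ER share was higher in eggs for 174 members, against 1.77% of all transcripts, with a median difference over the members of -3.61 points. Leaving out egg replicate 1 brought that median to -0.79 points and the count to 249. In all, 169 members had larger shares both on the ER and in the pellet of eggs, 374 had a larger share in the pellet alone, and 35 gained more on the ER than in the pellet.

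**Figure D1:**
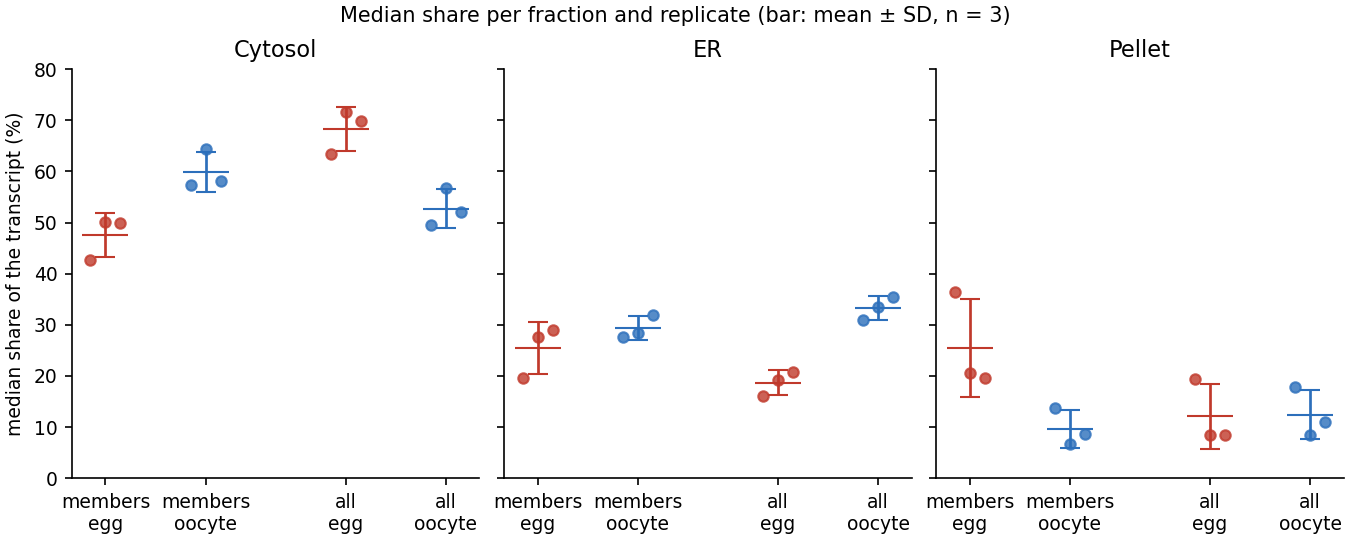
Median share in percent of the members and of all 18766 transcripts in cytosol, ER and pellet, in eggs (red) and oocytes (blue); points are the 3 replicates, bars their mean ± SD. The members' cytosol medians lie lower in eggs (42.7, 50.1 and 49.98%) than in oocytes (57.3, 64.4 and 58.1%), whereas those of all transcripts lie higher in eggs, and the first egg replicate has the highest pellet median.

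Textbook roles were assigned by hand to 276 of the 549 members after the members were known: 183 encode proteins that enter the secretory pathway or sit in membranes, and 93 encode cyclins and other division proteins, histones, nuclear, RNA-binding or stress-induced proteins. The ER share was higher in eggs for 107 of the 183 members with a secretory or membrane product, which is 58.5%. It was higher for 1 of the 93 others (1.08%), the stress-induced nupr1.L. Over all transcripts it was higher for 1.77%. The 93 others are thus close to that share, and the missing ER gain is not particular to them. The median ER share of the secretory and membrane members was 33.4% in eggs and 31.9% in oocytes, and that of the other 93 was 17.9% in eggs and 27.7% in oocytes. All 276 had a higher pellet share in eggs, with a median difference of 11.3 points for the secretory and membrane members and 19.95 points for the others. The ER was the largest of the 3 fractions in eggs for 58 of the 183 and for 0 of the 93, against 0.778% of all transcripts. With each replicate left out in turn, the count of members with a higher ER share in eggs ran between 76 and 148 of the 183 and between 0 and 3 of the 93. These counts are descriptions, since the split of ER and pellet comes from the same libraries as the shares that chose the members.

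**Figure D2:**
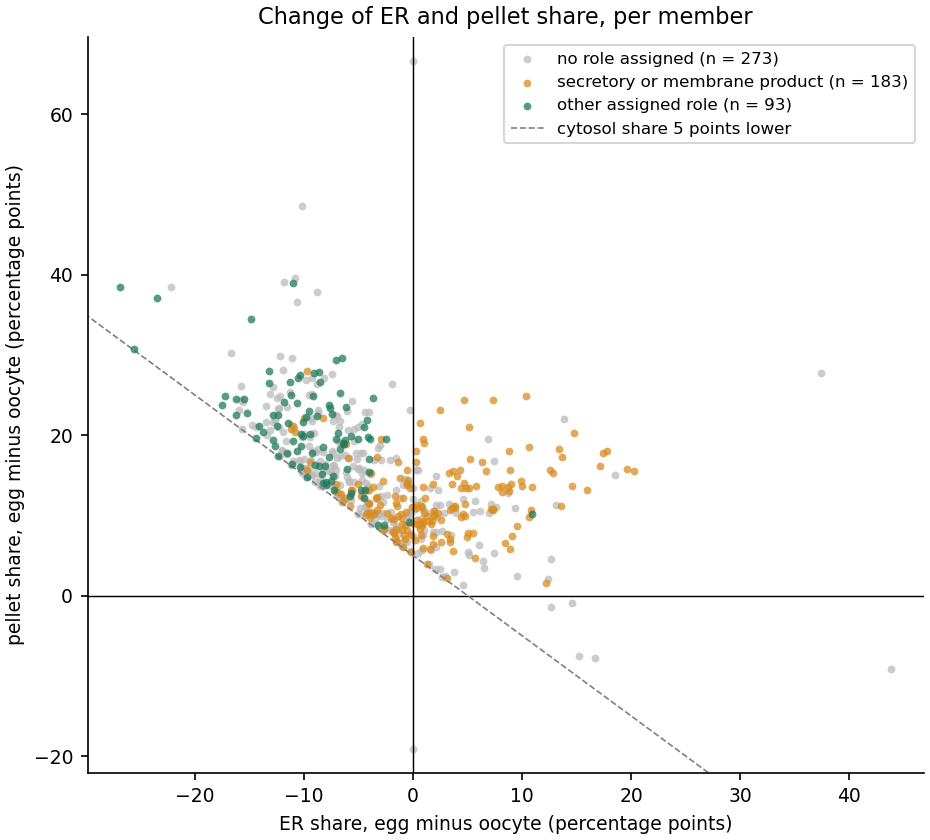
Each point is a member, placed by its ER share in eggs minus that in oocytes (x, percentage points) and the same difference for the pellet share (y); orange are the 183 members with a secretory or membrane product, green the 93 with another assigned role, grey the 273 without one. The dashed line marks a cytosol share 5 points lower, above which members lie by the rule; nearly all green points are left of 0 on the ER axis, while the orange points reach to its right.

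Cell-cell junction, adhesion and tetraspanin RNAs formed the group with the highest median ER share in eggs, 41.5% in eggs and 36.98% in oocytes, and 15 of its 22 members had a higher ER share in eggs. Claudins are the membrane proteins that seal tight junctions. The claudin cldn7.L (gene18237) had cytosol shares of 15.6, 17.2 and 18.6% in eggs, against 45.3, 52.7 and 40.4% in oocytes. Its ER shares were 28.4, 46.5 and 46.6% in eggs, against 31.1, 33.3 and 43.2% in oocytes. Its pellet shares were 56.03, 36.3 and 34.8% in eggs, against 23.6, 14.1 and 16.5% in oocytes. The egg and oocyte values of cldn7.L did not overlap in the cytosol and pellet, and on the ER the first egg value lay below all oocyte values. Both homeologs of a claudin 6 copy, cldn6.2.L (gene16552) and cldn6.2.S (gene16082), did the same: the cytosol shares of cldn6.2.L were 17.98, 18.6 and 17.1% in eggs, against 47.7, 56.7 and 44.6% in oocytes. Those of cldn6.2.S were 19.7, 19.7 and 19.5% in eggs, against 45.4, 50.9 and 41.2% in oocytes. No egg library exceeded any oocyte library in either copy, and their mean pellet shares were 39.2% ± 10.9 in eggs and 14.8% ± 4.7 in oocytes for cldn6.2.L (SD, n = 3 each). The gap junction connexin gjc1.L (gene42696), whose older symbol is carried by gja7.S (gene1332), had cytosol shares of 29.5, 34.8 and 35.98% in eggs, against 63.5, 69.04 and 63.1% in oocytes. Its ER shares were 35.9, 46.3 and 44.2% in eggs, against 27.3, 27.4 and 31.5% in oocytes, all egg values above all oocyte values. The integrin subunit itgb1.L, which pairs with alpha subunits to bind the extracellular matrix, gained in the pellet only: its mean ER share was 34.5% ± 5.3 in eggs and 38.5% ± 4.6 in oocytes, and its mean pellet share 21.95% ± 8.7 in eggs and 8.7% ± 3.1 in oocytes (SD, n = 3 each). The heparan sulphate proteoglycan sdc1.L had cytosol shares of 38.7, 45.6 and 44.5% in eggs, against 53.3, 55.6 and 52.9% in oocytes, again without overlap.

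RNAs for ER and Golgi proteins were the most numerous assigned group, with 60 members, of which 39 had a higher ER share in eggs. The enzyme alg6 adds a glucose to the lipid-linked precursor of N-glycans. The model alg6 (gene47596) had cytosol shares of 28.2, 32.3 and 30.1% in eggs, against 62.6, 70.9 and 64.6% in oocytes, and ER shares of 36.2, 48.7 and 51.96% in eggs, against 25.04, 22.7 and 28.3% in oocytes. A second model of the name, alg6.L (gene40747), had cytosol shares of 25.2, 27.5 and 29.5% in eggs, against 51.3, 62.1 and 53.4% in oocytes. No cytosol value of eggs overlapped one of oocytes in either model. Reads could be divided between the models if their sequences are close, which was not checked. Both transmembrane sensors of unfolded proteins in the list moved alike: ern2.S, an IRE1-type kinase, had cytosol shares of 30.4, 35.9 and 34.4% in eggs, against 64.2, 72.6 and 69.8% in oocytes. The kinase eif2ak3.S (PERK) had cytosol shares of 27.1, 32.6 and 31.7% in eggs, against 63.6, 70.1 and 62.7% in oocytes, and ER shares of 33.5, 46.6 and 47.002% in eggs, against 26.1, 25.7 and 31.1% in oocytes. Egg and oocyte values of both kinases were fully apart in the cytosol and, for eif2ak3.S, on the ER. The translocon-associated subunit ssr4.S, at a mean of 162 TPM the most abundant of the ER translocon and folding list, had mean ER shares of 31.2% ± 9.8 in eggs and 37.6% ± 6.3 in oocytes, and mean pellet shares of 40.5% ± 12.5 in eggs and 21.5% ± 7.1 in oocytes (SD, n = 3 each). Its homeolog ssr4.L, at 42.4 TPM, had a mean cytosol share 12.1 points higher in eggs. The prolyl isomerase fkbp14.L of the ER lumen had cytosol shares of 28.98, 32.98 and 33.5% in eggs, against 47.8, 55.7 and 46.8% in oocytes. An L and an S model of the glycolipid enzyme b3gnt5 were members, with mean cytosol shares of 42.1% ± 2.7 in eggs and 50.003% ± 2.7 in oocytes for b3gnt5.S (gene13682) and 35.4% ± 2.97 in eggs and 46.9% ± 2.02 in oocytes for b3gnt5.L (gene1993). A second model of b3gnt5.S (gene47180), more abundant with 124 TPM against 88.9 TPM, just missed the rule with a cytosol share 4.93 points lower in eggs. The drug-metabolising enzyme cyp1a1.S, anchored in the ER membrane, had cytosol shares of 32.97, 40.98 and 38.97% in eggs, against 63.9, 70.2 and 66.5% in oocytes. The steroid enzyme cyp17a1.L, which makes androgens and is also a follicle cell marker in the list used here, had cytosol shares of 21.9, 29.5 and 27.5% in eggs, against 38.4, 48.4 and 41.95% in oocytes, and ER shares of 31.1, 45.4 and 48.5% in eggs, against 28.8, 32.1 and 36.7% in oocytes.

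Among transporters, pumps and channels, 20 of 39 members had a higher ER share in eggs. The plasma membrane calcium pump atp2b1.L had cytosol shares of 36.6, 51.01 and 44.9% in eggs, against 74.1, 77.4 and 73.8% in oocytes, and ER shares of 30.3, 34.6 and 39.4% in eggs, against 19.998, 20.7 and 22.6% in oocytes, with no overlap in either. Its homeolog atp2b1.S went the other way, with a mean cytosol share 23.6 points higher in eggs. The cation pump atp13a4.S had cytosol shares of 23.7, 30.8 and 27.1% in eggs, against 58.4, 64.4 and 64.2% in oocytes. The zinc transporter slc39a11.L kept the smallest part in the egg cytosol of these, with 14.7, 19.8 and 18.6% in eggs, against 43.2, 48.2 and 45.96% in oocytes, and its ER shares were 38.7, 55.6 and 56.3% in eggs, against 34.2, 38.05 and 39.9% in oocytes. The major facilitator family member mfsd9.L had cytosol shares of 29.5, 36.5 and 34.1% in eggs, against 59.6, 65.5 and 62.5% in oocytes, and ER shares of 36.7, 46.7 and 50.02% in eggs, against 27.3, 28.5 and 29.8% in oocytes. Both models of the solute carrier slc35f2.L were members, with mean cytosol shares of 43.4% ± 3.98 in eggs and 61.2% ± 4.4 in oocytes for gene50718 and 49.1% ± 4.1 in eggs and 60.4% ± 3.3 in oocytes for gene48297. The amino acid transporters slc43a2.L and slc7a5.S and the creatine transporter slc6a8.L stood apart from this pattern. The pellet was their largest fraction in eggs, with mean pellet shares of 43.4% ± 9.1 in eggs and 15.4% ± 2.8 in oocytes for slc43a2.L, 54.3% ± 10.02 in eggs and 32.2% ± 8.8 in oocytes for slc7a5.S and 61.000% ± 10.3 in eggs and 40.6% ± 10.6 in oocytes for slc6a8.L. Their ER shares were lower in eggs, at 16.9% ± 3.04 in eggs and 26.6% ± 2.3 in oocytes for slc43a2.L (SD, n = 3 each).

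Receptors and membrane signalling proteins gave 22 members, 12 of them with a higher ER share in eggs. Both homeologs of ptk7, a co-receptor of planar cell polarity, were members: ptk7.L had cytosol shares of 44.2, 52.7 and 51.9% in eggs, against 59.5, 65.5 and 60.7% in oocytes, and ptk7.S had 44.8, 50.9 and 51.9% in eggs, against 53.8, 60.4 and 54.9% in oocytes. Secreted proteins, proteases and their inhibitors gave 27 members, 14 with a higher ER share. The guidance factor sema3d.S (gene13241), with the largest fall of all members with a symbol, had cytosol shares of 29.2, 38.7 and 35.1% in eggs, against 67.6, 71.9 and 71.1% in oocytes, and ER shares of 34.98, 43.3 and 48.05% in eggs, against 23.8, 24.8 and 24.3% in oocytes. All egg values of sema3d.S lay apart from all oocyte values in both fractions. The matrix glycoprotein emilin2.L had cytosol shares of 27.9, 36.1 and 33.4% in eggs, against 48.99, 51.98 and 51.9% in oocytes. The Kunitz-type inhibitors of membrane serine proteases spint1.L and spint2.L had mean cytosol shares of 47.02% ± 3.996 in eggs and 55.04% ± 3.2 in oocytes for spint1.L and 29.1% ± 2.7 in eggs and 43.9% ± 5.8 in oocytes for spint2.L. The sheddase adam10.S overlapped between stages in the cytosol, with 49.1, 56.8 and 56.8% in eggs, against 58.5, 63.2 and 56.8% in oocytes. Lysosomal proteins gave 13 members, 7 with a higher ER share. Both homeologs of the lysosomal membrane protein lamp1 were among them, with mean cytosol shares of 33.8% ± 3.2 in eggs and 47.05% ± 4.1 in oocytes for lamp1.L and 41.1% ± 4.5 in eggs and 50.2% ± 4.05 in oocytes for lamp1.S (SD, n = 3 each). The lysosomal acid phosphatase acp2.S, which had the next highest level, had pellet shares of 31.1, 15.97 and 15.8% in eggs, against 11.5, 5.3 and 6.7% in oocytes.

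**Figure D3:**
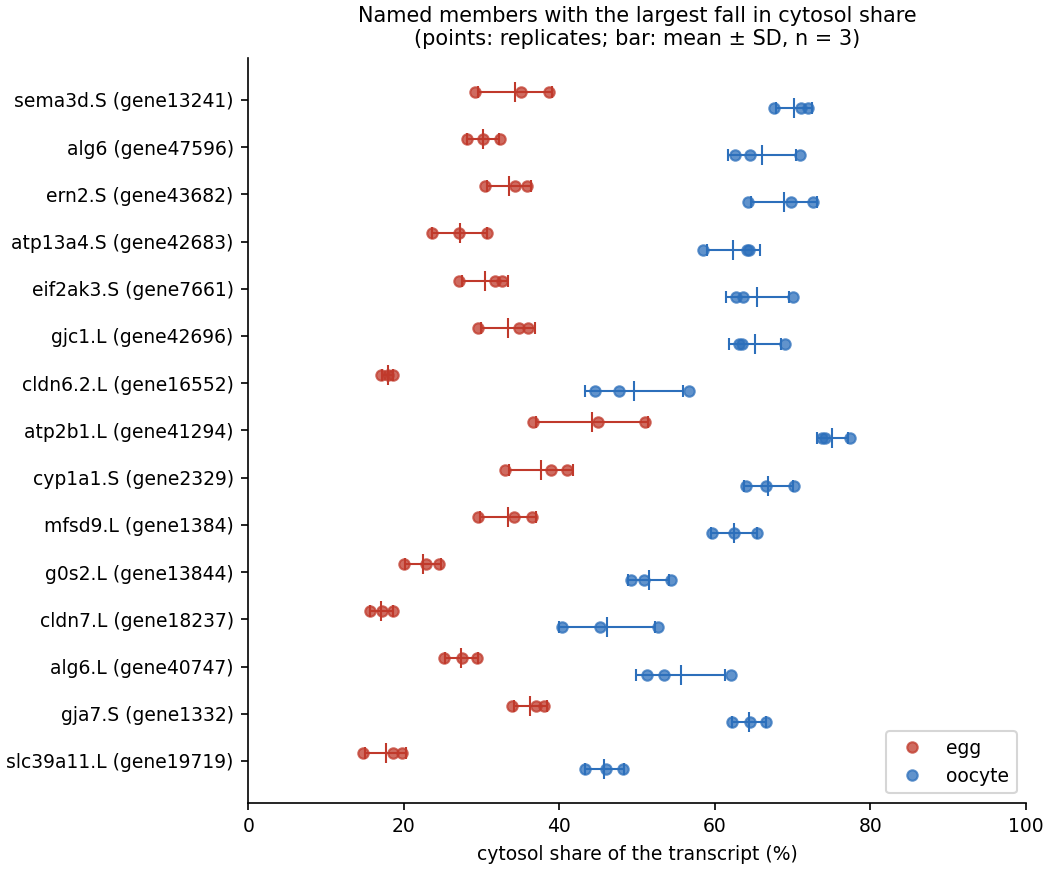
Cytosol share in percent of the 15 members with a gene symbol that had the largest fall, eggs in red above oocytes in blue; points are the replicates, bars the mean ± SD (n = 3). The egg and oocyte points of these 15 do not overlap, as their choice by the size of the fall makes likely.

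Cyclins and other proteins of division and replication formed the second largest group, with 41 members. None of these had a higher ER share in eggs, against 1.77% of all transcripts. The median ER share of the 41 was 17.4% in eggs and 26.6% in oocytes, and their median pellet share 29.7% in eggs and 8.2% in oocytes. A-type and B-type cyclins drive entry into the meiotic and mitotic divisions. The cyclin A gene ccna1.L (gene1949) had cytosol shares of 49.1, 53.3 and 56.4% in eggs, against 69.1, 73.8 and 63.1% in oocytes. Its pellet shares were 38.7, 26.3 and 23.4% in eggs, against 8.3, 4.3 and 5.5% in oocytes, and its ER shares 12.3, 20.4 and 20.2% in eggs, against 22.6, 21.9 and 31.4% in oocytes. In the cytosol and pellet the stages did not overlap for ccna1.L. The other homeolog, ccna1.S, had pellet shares of 34.2, 22.03 and 19.4% in eggs, against 8.5, 4.6 and 5.6% in oocytes. Of the B-type cyclins, ccnb1.2.L had pellet shares of 47.01, 31.4 and 29.1% in eggs, against 10.7, 6.4 and 7.1% in oocytes, and ccnb1.2.S had 47.7, 31.7 and 29.01% in eggs, against 12.6, 7.4 and 8.7% in oocytes. For ccnb2.L they were 46.5, 33.9 and 29.8% in eggs, against 12.9, 7.3 and 8.5% in oocytes, and for ccnb2.S 35.6, 23.1 and 21.5% in eggs, against 12.2, 7.04 and 8.7% in oocytes. All 4 of these B-type cyclin RNAs were thus higher in every egg pellet than in any oocyte pellet. The cytosol shares of ccnb1.L, which also stood in the oocyte marker list, overlapped between the stages, with 48.7, 53.9 and 59.02% in eggs, against 61.5, 66.5 and 55.7% in oocytes. The partner ccnb1.S just missed the rule, with a mean cytosol share 4.45 points lower in eggs. The spindle protein hmmr.L had cytosol shares of 50.3, 58.9 and 61.2% in eggs, against 76.05, 80.99 and 76.2% in oocytes, and pellet shares of 40.2, 25.2 and 22.2% in eggs, against 6.6, 2.9 and 4.1% in oocytes. The chromosome-binding kinesin kif22.S (gene6790) had pellet shares of 40.9, 25.7 and 24.01% in eggs, against 9.3, 4.1 and 5.9% in oocytes. The centriole assembly protein cep152.L had ER shares of 11.4, 21.6 and 22.9% in eggs, against 43.97, 45.4 and 47.02% in oocytes, and pellet shares of 61.01, 41.7 and 39.9% in eggs, against 12.5, 6.9 and 7.6% in oocytes. For cep152.L the pellet was the largest fraction in every egg replicate and the smallest in every oocyte replicate.

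Histone RNAs gave 11 members, all with a lower ER share and a higher pellet share in eggs (1.77% of all transcripts had a higher ER share). They include the most abundant member, the H2A variant h2afx.L (gene13554), with a mean of 13378 TPM. It had cytosol shares of 43.3, 43.4 and 47.3% in eggs, against 64.97, 64.8 and 51.4% in oocytes, and pellet shares of 37.4, 29.6 and 27.2% in eggs, against 8.1, 4.9 and 6.6% in oocytes, without overlap. The H3 model hist2h3c.L, at a mean of 2973 TPM, had pellet shares of 32.2, 24.8 and 23.3% in eggs, against 9.1, 5.7 and 7.2% in oocytes. The H2B model hist1h2bj.S, at 1649 TPM, had 35.01, 23.7 and 23.8% in eggs, against 9.5, 5.4 and 7.1% in oocytes. The 3 models shared 1 pattern, higher in every egg pellet, but histones are a multigene family whose reads the counting could divide between near-identical copies. Nuclear, chromatin and DNA repair proteins gave 19 members. The nuclear lamina protein lamin B1 had mean cytosol shares of 61.8% ± 5.6 in eggs and 74.7% ± 3.1 in oocytes for lmnb1.L and 65.1% ± 4.8 in eggs and 73.4% ± 3.2 in oocytes for lmnb1.S (SD, n = 3 each). The nucleoporin nup98.L had cytosol shares of 48.8, 52.6 and 56.7% in eggs, against 61.7, 71.6 and 59.7% in oocytes. The transcription factor sox3, which acts in early ectoderm, had pellet shares of 34.5, 22.4 and 20.9% in eggs, against 10.2, 4.9 and 6.6% in oocytes for sox3.L and 41.7, 28.6 and 25.1% in eggs, against 9.4, 4.5 and 5.6% in oocytes for sox3.S. The maintenance DNA methyltransferase dnmt1.S overlapped in the cytosol, with 42.2, 49.7 and 55.6% in eggs, against 53.04, 58.5 and 51.6% in oocytes, while its ER shares were 5.3, 12.01 and 11.9% in eggs, against 32.8, 33.8 and 39.3% in oocytes, far apart. RNA-binding and RNA-processing proteins gave 14 members with 0 higher on the ER of eggs, and stress-induced or immediate-early genes gave 8. Of these, the kinase pdk4.L, which slows pyruvate oxidation, had pellet shares of 80.2, 64.2 and 58.9% in eggs, against 41.7, 22.4 and 35.8% in oocytes. The phosphatases of MAP kinases dusp1.L and dusp1.S had mean pellet shares of 34.3% ± 14.02 in eggs and 15.8% ± 5.04 in oocytes for dusp1.L and 40.7% ± 18.9 in eggs and 12.7% ± 5.5 in oocytes for dusp1.S (SD, n = 3 each).

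No role was assigned to 273 members, and the ER share was higher in eggs for 66 of these. The lipase inhibitor g0s2.L, which acts at lipid droplets, had cytosol shares of 19.98, 22.8 and 24.5% in eggs, against 50.9, 49.2 and 54.4% in oocytes, and pellet shares of 66.8, 47.5 and 43.3% in eggs, against 18.8, 14.9 and 10.2% in oocytes. The pellet was its largest fraction in every egg replicate and the smallest in every oocyte replicate. The phosphatase-like trafficking protein ptpn23.L had cytosol shares of 48.9, 58.7 and 56.4% in eggs, against 62.3, 69.4 and 65.3% in oocytes. The transcript mia3-like.1.L, named after a protein of ER exit sites, had ER shares of 35.3, 38.5 and 39.6% in eggs, against 23.6, 25.4 and 26.4% in oocytes, all higher in eggs.

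Whether a member lay more on the ER or in the pellet was tested within each stage with edgeR's quasi-likelihood test on rounded estimated counts, with Benjamini-Hochberg adjustment over 25938 transcripts. The log2 fold change, ER over pellet, is relative to the typical transcript, since TMM scaling sets that to no change. The low-count filter let 533 members pass. ER and pellet libraries were treated as unpaired. Same-numbered ones deviated together (r = 0.164, 0.134 and 0.102 in eggs, 0.204, 0.17 and 0.097 in oocytes). The effect of this pairing on the calls was not tested. In eggs, 78 members were called higher on the ER and 325 lower, against 29.3% higher and 30.8% lower of all tested transcripts and 38.6% higher and 30.5% lower of those with at least 2 TPM. In oocytes, 274 were called higher and 97 lower, against 31% higher and 28.5% lower of all tested transcripts and 41.1% higher and 26.5% lower of those with at least 2 TPM. The median member had a log2 fold change of -0.49 in eggs and 0.25 in oocytes. Because the rule favours a larger pellet share in eggs, the egg calls are not free of it. The scaling sets the share of calls in each direction: with limma on aM values, 112 members were called higher and 100 lower in eggs, and 468 higher and 20 lower in oocytes. Scaling by spike-in counts gave 49 higher and 188 lower in eggs, and 443 higher and 28 lower in oocytes. These scalings moved the median of all tested transcripts to 0.51 (aM) and 0.24 (spike-in counts) in eggs and to 1.16 and 0.94 in oocytes. Relative to that median, the members' median was between -0.47 and -0.37 in eggs and between 0.25 and 0.44 in oocytes under TMM, spike-in and aM scaling.

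By role, the calls divided as follows; they come from the same libraries as the shares, so they restate the ER and pellet shares above on the count scale, and no test compared the role groups. In eggs, all 92 tested members with a role outside the secretory pathway were called lower on the ER, 67 of them with spike-in scaling and 42 with aM values. Of the 183 secretory and membrane members, 52 were called higher and 53 lower in eggs, which is 28.4% and 29%. Over the transcripts with at least 2 TPM, 38.6% were called higher and 30.5% lower in eggs. The even division of the 183 depends on the scaling. With aM values 77 of them were called higher and 7 lower, against 9213 and 638 of the 18682 tested transcripts with at least 2 TPM. With spike-in scaling 29 were called higher and 12 lower, against 5071 and 1821 of the 18682. In oocytes, 57 of the 92 were called higher and 12 lower, which is 62% and 13%. Of the 183, 97 were called higher and 38 lower in oocytes, which is 53% and 20.8%. The shares over transcripts with at least 2 TPM were 41.1% higher and 26.5% lower in oocytes. The cyclin and division group had a median log2 fold change of -1.26 in eggs and 0.35 in oocytes, and the junction group 0.13 in eggs and 0.34 in oocytes. The values of single members below are descriptions too, since the rule also bears on the egg calls. Among called members with a symbol, the highest values in eggs were those of mia3-like.1.L, with 1.15 ± 0.07, and ptk7.S, with 0.72 ± 0.06 (edgeR, ± SE). They were followed by ptk7.L with 0.65 ± 0.06, sdc1.L with 0.60 ± 0.06 and tspan6.L with 0.53 ± 0.05, all encoding membrane proteins. The lowest were pdzrn3.L, pdk4.L with -2.88 ± 0.20, dnmt1.S with -2.56 ± 0.12, slc6a8.L with -2.49 ± 0.14 and rbm47.L with -2.49 ± 0.13 (edgeR, ± SE). The transcript of the ubiquitin ligase pdzrn3.L was listed at 0% in the cytosol of all 3 eggs and at 7.004, 0.0 and 34.2% in oocytes, and its call in eggs was lost with DESeq2, so its values vary too much to place it.

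**Figure D4:**
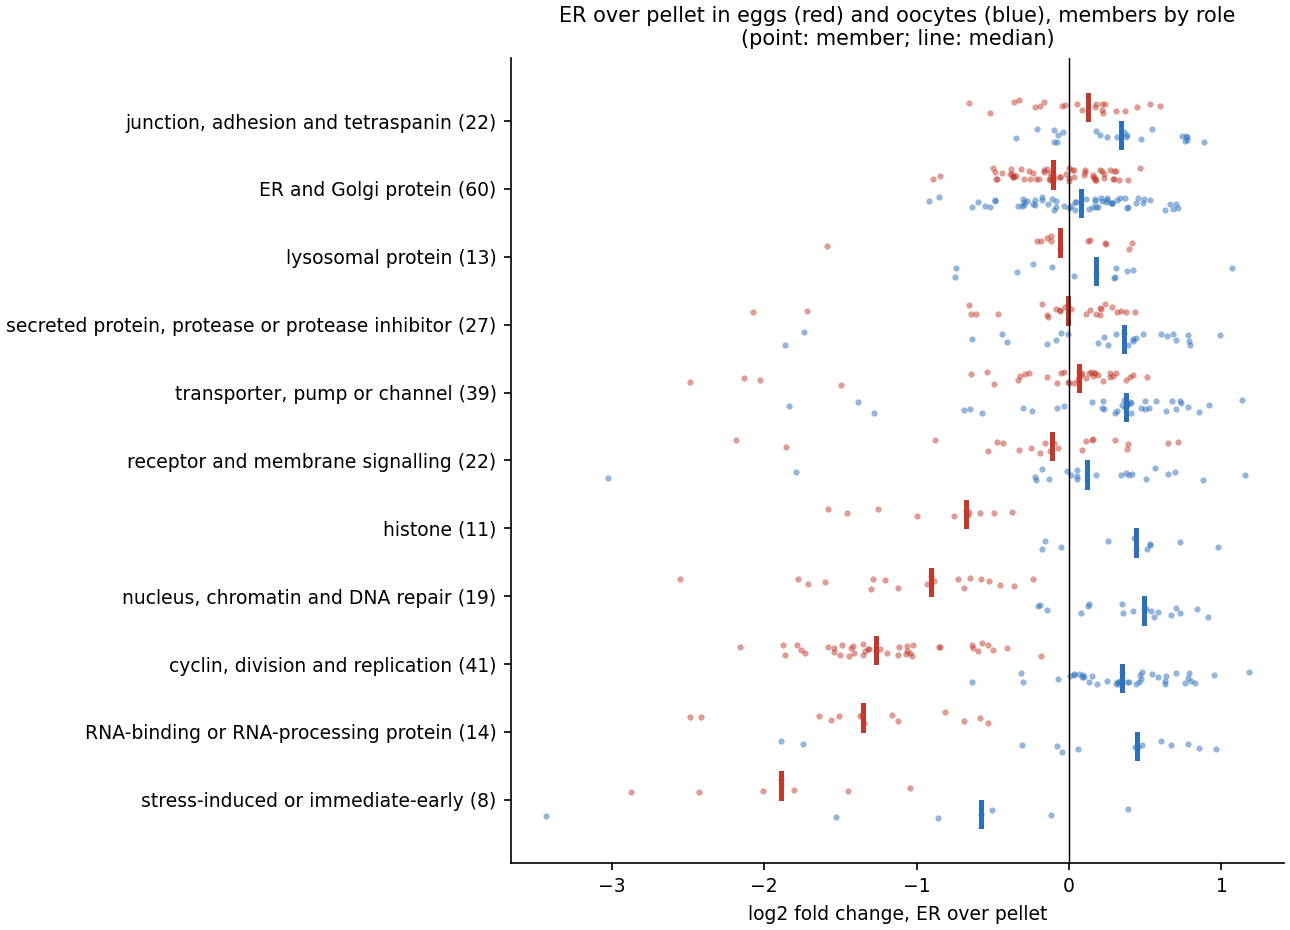
Log2 fold change of ER over pellet for each member with an assigned role, in eggs (red, upper row of each group) and oocytes (blue, lower row); points are members, vertical lines group medians, and numbers in parentheses count members. Egg medians of the 5 groups outside the secretory pathway lie between -1.89 and -0.68, those of the 6 secretory and membrane groups between -0.11 and 0.13.

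The change of the ER over pellet ratio from oocytes to eggs was tested as an interaction in the same edgeR fit. The rule sets the direction of the summed ER and pellet share, but not how the sum divides. A member whose ER share was lower in eggs, like that of the typical transcript, had to have a higher pellet share. This held for 374 members, so the rule itself favours a lower ratio. Chance values of the libraries also enter both the rule and this test. The counts and log2 changes below are therefore descriptions, given without adjusted p. The shares over all transcripts beside the counts are not under the same rule. The ratio was lower in eggs for 323 members and higher for 19, against 19.8% lower and 16% higher of all tested transcripts and 26.7% lower and 21% higher of those with at least 2 TPM. It was called lower for 88 of the 92 members outside the secretory pathway and higher for 0 of them. For the 183 secretory and membrane members it was called lower for 72 and higher for 12. The largest decreases among members with a symbol were those of dnmt1.S, with a log2 change of -2.98 ± 0.16, and cep152.L, with -2.82 ± 0.13 (edgeR, ± SE). The DNA ligase lig4.L fell by 2.30 ± 0.15, parpbp.L, a regulator of homologous recombination, by 2.25 ± 0.15, and hmmr.L by 2.17 ± 0.10 on the log2 scale. The largest increases were those of cyp17a1.L, with 0.76 ± 0.10, and the lysosomal peptide transporter slc15a4.L, with 0.72 ± 0.08 (edgeR, ± SE). They were followed by mia3-like.1.L with 0.55 ± 0.10, the lysosomal hydrolase-like plbd2.L with 0.53 ± 0.11 and kiaa1109.L (gene3703), which encodes a lipid transfer protein, with 0.43 ± 0.10. The increases held relative to the typical transcript only: all 5 were below 0 with aM values, and the last 3 also with spike-in scaling. With aM values 0 members and with spike-in scaling 1 member were called higher, against 286 and 393 lower.

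The total over the 3 fractions was lower in eggs for most members. The authors' values give every stage and replicate the same overall sum, so a total is a part of the RNA measured. The median member had a log2 change of -0.34, egg over oocyte, and the median of all 18766 transcripts was 0.14, on the log2(aM + 0.01) scale. With limma, 302 members were called lower and 11 higher, against 6.65% lower and 17.5% higher of all transcripts. Without the filter on low values 178 were called lower and 5 higher, and with the replicate block 268 lower and 19 higher. The cytosol value is the largest part of most totals, so choosing members with a low egg cytosol share also favours low egg totals, and nothing is read from these counts. Per fraction, the median log2 change of the mean aM value of the members was -0.62 in the cytosol, -0.47 on the ER and 0.83 in the pellet. Over all transcripts these were 0.50 in the cytosol, -0.64 on the ER and 0.04 in the pellet. For the 183 secretory and membrane members they were -0.71 in the cytosol, -0.28 on the ER and 0.59 in the pellet, and for the 93 members with another role -0.78, -1.04 and 1.24 in the same order. The rule itself favours low cytosol values in eggs, so the fractions are not compared on these values. The totals of groups and single members below are descriptions with the same limit.

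Division genes had the lowest median total of the groups with over 20 members, -0.66, while the histones, at -0.12, were closest to 0. Among members with a symbol, the lowest log2 changes of the total were those of dnmt1.S at -1.23 ± 0.10, the condensin subunit ncapd2.S at -1.19 ± 0.10 and the protease-activated receptor f2rl1.S at -1.17 ± 0.07 (± SE). The totals of dnmt1.S were 9.06, 7.21 and 8.55 aM in eggs, against 19.5, 19.2 and 19.2 aM in oocytes. Those of ncapd2.S were 9.74, 7.81 and 9.74 aM in eggs, against 20.9, 21.1 and 20.2 aM in oocytes. Those of f2rl1.S were 1.49, 1.46 and 1.54 aM in eggs, against 3.5, 3.22 and 3.42 aM in oocytes. Egg and oocyte totals did not overlap for these 3. They were followed by hmmr.L at -1.10 ± 0.07 and emilin2.L at -1.08 ± 0.07. A few members had higher totals in eggs. The totals of pdk4.L were 0.657, 0.263 and 0.295 aM in eggs, against 0.0872, 0.0896 and 0.0753 aM in oocytes, a log2 change of 2.02 ± 0.30. Those of f2rl2.L, another protease-activated receptor, were 0.215, 0.138 and 0.121 aM in eggs, against 0.0322, 0.038 and 0.0326 aM in oocytes, a log2 change of 1.89 ± 0.18. The transporters slc6a8.L, slc43a2.L and slc7a5.S followed, with 1.18 ± 0.15, 1.10 ± 0.12 and 1.08 ± 0.20 (± SE). All 5 were scarce, with mean levels of 6.52, 2.8, 2.59, 6.92 and 2.07 TPM in that order, and in all 5 the pellet was the largest fraction in eggs on average.

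**Figure D5:**
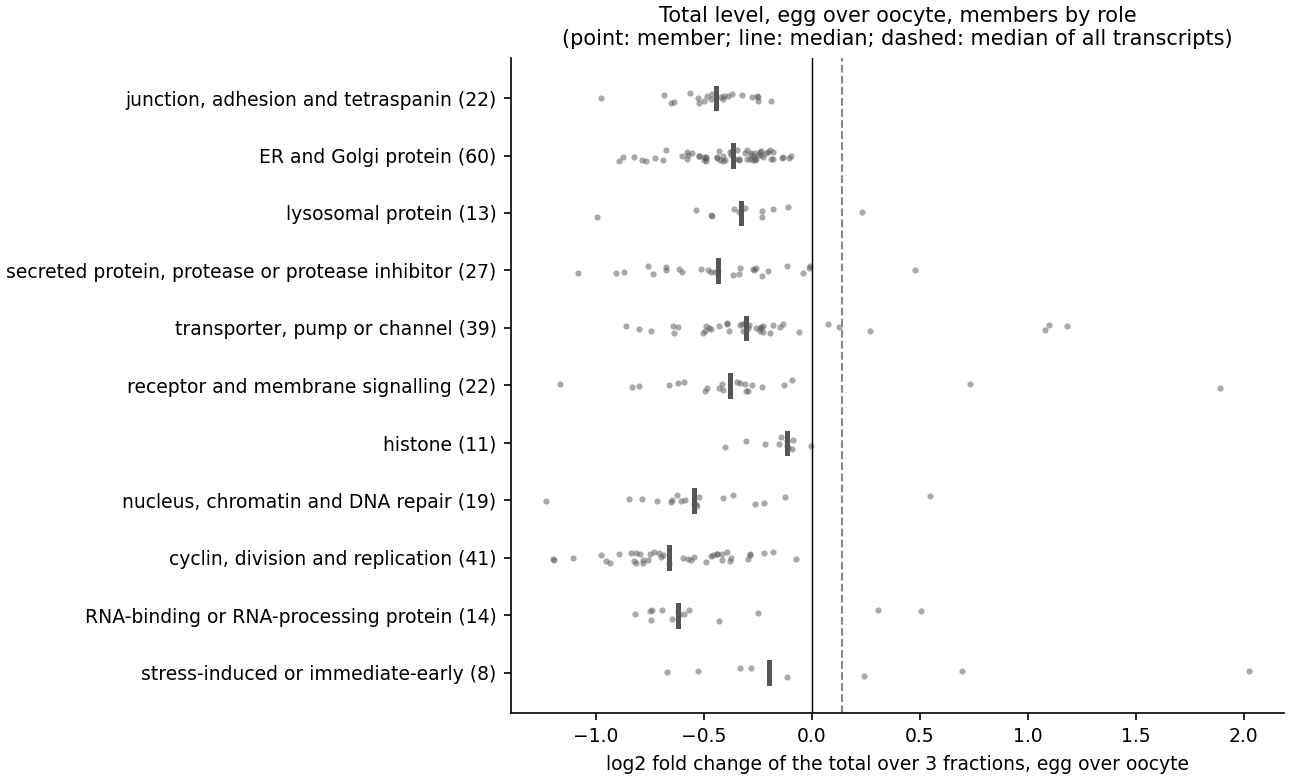
Log2 fold change of the 3-fraction total, egg over oocyte, for each member with an assigned role; points are members, short vertical lines group medians, the solid line marks no change and the dashed line the median of all 18766 transcripts, 0.14. The medians of all 11 groups lie below 0, from -0.66 for cyclins and division to -0.12 for histones.

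Gene lists separate from the roles above describe which classes the rule reached. They too were chosen with earlier results of these data known, and no set test was run. Against 2.93% of all transcripts, members made up 10.9% of the 202 transcripts of the meiosis and cell cycle list and 10.5% of the 57 of secreted ligands and extracellular matrix. They made up 10.3% of the 97 of lysosome and V-ATPase, 9.42% of the 138 of histones and chromatin, 8.37% of the 418 of transporters and 8.33% of the 156 of receptors, adhesion and junctions. The ER translocon, folding and glycosylation list held 13 members of 203, and the Golgi and vesicle traffic list 9 of 474. No member came from the 138 transcripts of cytosolic ribosomal proteins, the 143 of nuclear-encoded oxidative phosphorylation, the 99 of mitochondrial ribosomal proteins, the 77 of the proteasome, the 103 of maternal RNA storage or the 29 of vegetal and germ plasm RNAs. Even in the lists rich in members, the typical transcript had a higher cytosol share in eggs, with a median difference of 11.5 points in the receptor list and 11.7 points in the cell cycle list, against 14.9 points over all transcripts. Of the smaller counts, 6 of 177 came from the cytoskeleton list, 4 of 481 from transcription factors, 3 of 343 from signalling kinases and phosphatases and 1 of 111 from translation factors, the kinase eif2ak3.S. The follicle list gave cyp17a1.L, the blood and immune list cd74.L, at a mean of 2.06 TPM, and the oocyte marker list ccnb1.L. The other 413 members were in no list.

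Xenopus laevis is an allotetraploid, and many of its genes exist as an L and an S homeolog. Of the members, 220 carry an L and 126 an S ending, against 7807 L and 5614 S among all transcripts at the same level. The other homeolog was at or above 2 TPM for 168 members, and for 75 of these it was a member too, while 2.93% of all transcripts are members. Of the other 93 partners, which are not members, the cytosol share was lower in eggs for 37, against 5.81% of all transcripts, and the median difference, egg minus oocyte, was 2.29 points. Pairs with both copies among the members are counted from both sides. Where a name had several models, the most abundant was the partner, so b3gnt5.L was counted with gene47180, which is not a member. Homeologs whose sequences are close can share reads, so partners are not independent. The 5 most abundant pairs with both copies among the members were ccna1, ccnb2, ccnb1.2, sox3 and cldn6.2. The integrin itgb1 shows the other case: itgb1.L had a mean cytosol share 9.16 points lower in eggs, and itgb1.S one that differed by 0.01 points. Some pairs moved in opposite directions. The cytosol share of atp2b1 was 30.9 points lower in eggs for the L copy and 23.6 points higher for the S copy. That of nucb1 was 24.5 points lower for the S copy and 22.7 points higher for the L copy.

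Not all members have a gene symbol: 332 do and 161 carry a number in place of one, of which 124 were found in the RefSeq gene table of assembly Xenopus_laevis_v10.1. In all, 427 members matched that table by symbol or number, and 411 of them are protein-coding, 9 long noncoding RNA genes and 5 pseudogenes. Transcripts were shorter than among all transcripts, with a median of 3389 and 3919 nt, and 17.1% of the members but 7.89% of all transcripts were under 1000 nt. Part of the short ones lay side by side: 36 members without a symbol formed 7 runs of at least 3, each within 3 gene positions of the next, on chromosomes 5L, 5S, 9_10L and 9_10S. The longest run held 9 members on 5L. Over these 36 the median cytosol share was 11.3 points lower in eggs, the median pellet share 19.3 points higher and the median ER share 8.75 points lower, and 3 of them had a higher ER share. Their mean levels reached 1850.5 TPM, and since neighbouring copies may share reads, they are not counted as independent. The deposited classes along the animal-vegetal axis, credited there to Sindelka et al., covered 281 members. Of these, 95.4% were animal, against 94.9% of 11078 classed transcripts, with 0 members among the 158 vegetal or extremely vegetal ones.

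The limits of the rule were as follows. Just inside lay kiaa2013.L at -5.05, mylip.S at -5.03 and papss1.S at -5.01 points, and just outside rgs18.S at -4.97, sox15.L at -4.96 and slc16a1.L at -4.96 points. A fall of at least 10 points was reached by 296 members, of at least 20 by 63 and of at least 30 by 17. In 4 members, all without a symbol, an egg replicate had a total of 0 in all fractions, so its shares were listed as 0, which lowers the egg mean. Of these 4, LOC108706221 also had a total of 0 in oocyte replicates 1 and 3 and LOC108710843 in oocyte replicate 3, which lowers the oocyte mean. The number of members depended on the authors' conversion to concentrations: with shares computed from TPM over the spike-in TPM the rule gave 915 transcripts, among them all 549 members.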

How the data were processed

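Stranded, ribosome-depleted libraries were sequenced from cytosol, ER and pellet of eggs and oocytes, 3 per group, per the labels. Per the submitters' processing notes, the authors ran bcl2fastq 2.20 and kallisto 0.46.2. Transcript set and build: not given in the sources used here. Positions are therefore left out. Each deposited library table lists an estimated count and a TPM value per transcript. The spike-ins served the authors to turn TPM into an attomolar signal, per the labels, and the deposited percent table splits a transcript's attomolar sum over cytosol, ER and pellet. Shares were used as deposited; 1 transcript without a name was left out. A further 16 mean and total columns of the deposited series tables were not used.

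Members and lists were chosen with earlier results of these data known, roles were assigned after the members were known from textbook knowledge, and shares therefore carry no test. After rounding, estimated counts went into edgeR 4.0.16 under R 4.3.3 (filterByExpr, TMM, glmQLFit, glmQLFTest) in 1 fit over 18 libraries, without spike-ins or a replicate block; totals were fitted with limma 3.58.1 on log2(aM + 0.01). Calls used a Benjamini-Hochberg adjusted p under 0.05, and the code was tested on simulated data. DESeq2 and other scalings and filters were tried. Each stage replicate was left out in turn for shares and totals, and each ER or pellet library for edgeR. Named members were the 15 largest falls, the 10 highest TPM, the 5 highest and 5 lowest called log2 changes per test, the 3 most abundant of each list and the 5 most abundant homeolog pairs. The labels do not say that replicate numbers mark a shared batch. Same-numbered ER and pellet libraries deviated together in eggs (r = 0.164, 0.134 and 0.102 over transcripts), all over the limit of 0.1 set for pairing. In oocytes r was similar, 0.204, 0.17 and 0.097, with 1 value just under that limit. The main fit has no block in either stage, and a fit with a replicate block was run as an alternative. That block gives a replicate number the same effect in eggs and oocytes. Same-numbered ER libraries of eggs and oocytes did not deviate together (r = -0.034, -0.016 and 0.001). The block therefore does not model pairing within a stage, whose effect on the calls was not tested.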

Additional observations from a re-analysis of the deposited data

Results flagged for a closer look

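The edgeR interaction test of the ER over pellet ratio marked 323 members as lower and 19 as higher in eggs. Since the rule that chose the members itself favours a lower ratio, these counts are descriptions. Over all tested transcripts 19.8% were called lower and 16% higher. Of those with at least 2 TPM it was 26.7% lower and 21% higher. The members with a symbol that differed most towards the pellet were dnmt1.S (-2.98), cep152.L (-2.82), lig4.L (-2.30), parpbp.L (-2.25) and hmmr.L (-2.17), each as a log2 change of the ratio, egg over oocyte. Those that differed most towards the ER were cyp17a1.L (0.76), slc15a4.L (0.72), mia3-like.1.L (0.55), plbd2.L (0.53) and kiaa1109.L (0.43). These increases held relative to the typical transcript only, and all of them were below 0 with aM values. Hardly any member was called higher with aM values or spike-in scaling. The groups of 3 libraries were too small for a test of single outlying samples.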

How the results depend on the processing

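The number of members, 549, was 692 with a fall of at least 3 points, 296 with one of at least 10, 915 with shares from spike-in scaled TPM and 2923 with shares from unscaled TPM, where the median cytosol share change of the members was -20.8 points. Leaving out each replicate gave 408 to 684 members and medians of -12.0 to -8.20 points for the cytosol, -5.45 to -0.79 for the ER and 8.47 to 17.5 for the pellet. Members with a higher ER share in eggs then numbered 127 to 249, 76 to 148 with a secretory or membrane role and 0 to 3 with another role; from spike-in scaled TPM the last count was 2, and from unscaled TPM the 3 counts were 294, 167 and 7. Members called higher on the ER than in the pellet of eggs numbered 49 with spike-in scaling, and those called lower 188 with it and 100 with limma on aM values. In oocytes 443 and 468 were called higher and 28 and 20 lower with these settings, and the interaction was called higher for 1 and 0 members. For edgeR, each ER or pellet library was left out in turn, and the other fractions of its replicate were kept. This gave 64 to 78 members higher and 300 to 331 lower in eggs, and 251 to 277 higher and 86 to 97 lower in oocytes. For the interaction it gave 17 to 22 higher and 305 to 329 lower. With each whole stage replicate left out, totals were called higher for 10 to 15 and lower for 204 to 310. Without the low-value filter, totals were called higher for 5 and lower for 178 members. With the replicate block they were called higher for 19, and for the tests of ER over pellet it changed no count by over 1.5 times (83 higher and 327 lower in eggs). The block is shared by both stages, so pairing within a stage was not tested. Interaction changes that turned sign were those of cyp17a1.L (-0.0135), slc15a4.L (-0.0564), mia3-like.1.L (-0.13), plbd2.L (-0.23) and kiaa1109.L (-0.28) with aM values, and of mia3-like.1.L (-0.16), plbd2.L (-0.16) and kiaa1109.L (-0.28) with spike-in scaling. Both scalings move the median of all transcripts in the interaction, to -0.53 with aM values and -0.70 with spike-in scaling. The members at low TPM have few reads per library, and 16 members did not pass the low-count filter.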
